A study of Mus musculus with 8 samples.

Results

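The NMDA receptor subunit genes are a family of 7 genes, Grin1, Grin2a, Grin2b, Grin2c, Grin2d, Grin3a and Grin3b. They were taken by name from a matrix of gene counts after its numeric gene identifiers had been matched to symbols. All 7 were among its 27179 genes and all 7 passed the filter on low counts that left 16074 genes for testing. The counts come from unstranded RNA sequencing of embryonic mouse cerebral cortex, with 4 Taf8-intact embryos, labelled Taf8 +/+, and 4 Taf8-deleted embryos, labelled Taf8 -/lox, which carry a null and a loxP-flanked allele. The recombinase that acts on the lox allele, the cells in which it is active and the embryonic stage are missing from the sources used here. Taf8 is a subunit of the general transcription factor TFIID, which binds core promoters and helps RNA polymerase II to start there. In the Taf8-deleted cortices, the mRNAs of Grin2b, Grin2c, Grin2d, Grin3a and Grin3b were lower. Those of Grin1 and Grin2a did not pass the test.

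NMDA receptors are cation channels of excitatory synapses that open when glutamate and a co-agonist, glycine or D-serine, are bound and the membrane is depolarised. Each channel holds GluN1, the obligatory subunit encoded by Grin1, which binds the co-agonist. It is joined by GluN2 subunits, encoded by Grin2a to Grin2d, which bind glutamate and set conductance and closing speed, or by the GluN3 subunits of Grin3a and Grin3b, which bind glycine and lower calcium flow. In forebrain, GluN2B and GluN2D are known as the early GluN2 subunits, GluN2A as the one that rises after birth, GluN2C as the subunit of cerebellar granule cells, GluN3A as a juvenile subunit and GluN3B as a subunit of motor neurons.

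The coding sequence around the conserved motif of the third membrane segment, which lines the gate of the channel, shows what the family has in common. It was read from GENCODE M21 transcripts in 6 of the 7 genes and was not found in the same form in Grin3a. Capitals mark the bases that are the same in all 6 genes, 16 of the 27 bases of the stretch, and the stretch is shown for 4 of them.
Grin1: tccTAcACtGCCAAccTgGCaGCctTC
Grin2a: agtTAcACaGCCAAccTgGCtGCctTC
Grin2c: agcTAcACgGCCAAtcTgGCaGCctTC
Grin3b: agtTAcACaGCCAAccTgGCaGCtgTC
No run as long as a read was shared between the genes. The longest run of bases shared by any pair of the 7 genes' transcripts was 34, between Grin2b and Grin2c, against reads of 100 bases per end.

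TFIID acts at core promoters, so promoter windows are shown. They are those of the gene with the largest fall, of Grin1, and of Grin3b, the only one of the matched windows with the letters TATAAA. Each has 300 bases, 250 before and 50 after the annotated start, from RefSeq on GRCm38.p6. RefSeq windows were matched for 4 of the 7 genes, those of Grin1, Grin2c, Grin2d and Grin3b. Capitals mark GGGCGG, the GC box bound by Sp factors, and TATAAA, the letters of the TATA box, searched on both strands.
Grin1, chr2:25319138-25319437, minus strand: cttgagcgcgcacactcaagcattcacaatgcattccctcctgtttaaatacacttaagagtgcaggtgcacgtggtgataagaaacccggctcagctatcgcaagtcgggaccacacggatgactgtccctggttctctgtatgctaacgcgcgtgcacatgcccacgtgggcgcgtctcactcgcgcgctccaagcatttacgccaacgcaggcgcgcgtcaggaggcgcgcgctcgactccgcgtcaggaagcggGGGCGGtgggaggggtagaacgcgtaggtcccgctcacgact
Grin2c, chr11:115267194-115267493, minus strand: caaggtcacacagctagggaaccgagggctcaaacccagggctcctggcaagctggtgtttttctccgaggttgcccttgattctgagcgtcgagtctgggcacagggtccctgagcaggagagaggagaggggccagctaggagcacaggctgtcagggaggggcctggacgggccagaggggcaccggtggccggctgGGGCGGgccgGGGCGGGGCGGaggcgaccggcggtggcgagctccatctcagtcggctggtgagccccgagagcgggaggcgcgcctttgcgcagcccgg
Grin3b, chr10:79970474-79970773, plus strand: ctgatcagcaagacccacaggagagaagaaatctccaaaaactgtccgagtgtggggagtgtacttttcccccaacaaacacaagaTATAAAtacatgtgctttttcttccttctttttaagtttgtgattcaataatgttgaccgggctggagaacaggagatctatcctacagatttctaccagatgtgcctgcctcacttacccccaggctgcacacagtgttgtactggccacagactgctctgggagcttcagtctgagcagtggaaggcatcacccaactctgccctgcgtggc
The windows differ in composition. The Grin2c window held 3 GC boxes, the last 2 of them sharing 1 base, and 70% G and C, a share higher than that of 90.4% of all windows. The Grin1 window held 1 GC box and 60.7% G and C, and the Grin2d window, at 56.0%, held none of the motifs searched. The Grin3b window, at 48.3%, held 1 TATAAA, 164 bases before the start that RefSeq gives for this window. That start lies inside the span given for Grin3b with its results, as do those of Grin2d and Grin2c for their spans. The Grin2c window reaches past the upstream end of its span, whereas those of Grin3b and Grin2d lie wholly within theirs. The Grin2d window ends at 45866931, while its minus-strand span reaches 45871194, so this window describes an internal start. Among 32851 promoter windows, 35.7% held GGGCGG and 13.6% held TATAAA, and the median G and C content was 52.7%. GCGCATGC, the core of the NRF1 site, and TGACGTCA, the cyclic AMP response element, stood in none of these 4 windows and in 2.71% and 1.79% of all windows. A match describes the letters only.

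Each library held 39590959 to 44788200 counts. Taf8 fell from 32.6 ± 2.07 CPM (counts scaled to library size; SD, n = 4) in intact cortex to 0.495 ± 0.187 in Taf8-deleted cortex, in every library in the direction of its label. Differences between the groups were widespread: in the quasi-likelihood test of edgeR, adjusted by the Benjamini-Hochberg method, 63.5% of the 16074 genes had an adjusted p under 0.05, 32.9% as lower and 30.6% as higher in Taf8-deleted cortex. Against this background 5 of the 7 subunit genes were lower and 0 were higher. The median log2 fold change, always deleted minus intact, was -0.85 for the 7 genes and 0.00 for all genes tested, whose quartiles were -0.27 and 0.27. In bulk tissue, fewer cells of a type and less RNA per cell cannot be told apart. The groups did not overlap for the same 5 genes, whereas they did not overlap for 57.7% of all genes tested. The animal numbers of the intact and deleted embryos share no prefix, and the labels do not say what the prefix marks. Litter or batch and genotype therefore cannot be told apart. Intact replicates 1 to 3 are numbered 408.4, 408.5 and 408.6, and intact replicate 4 is 409.2. The deleted embryos are 456.1, 472.1, 477.1 and 486.1, each with its own prefix. All tests treat the embryos as independent, which may not hold for intact embryos that share a prefix.

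**Figure D1:**
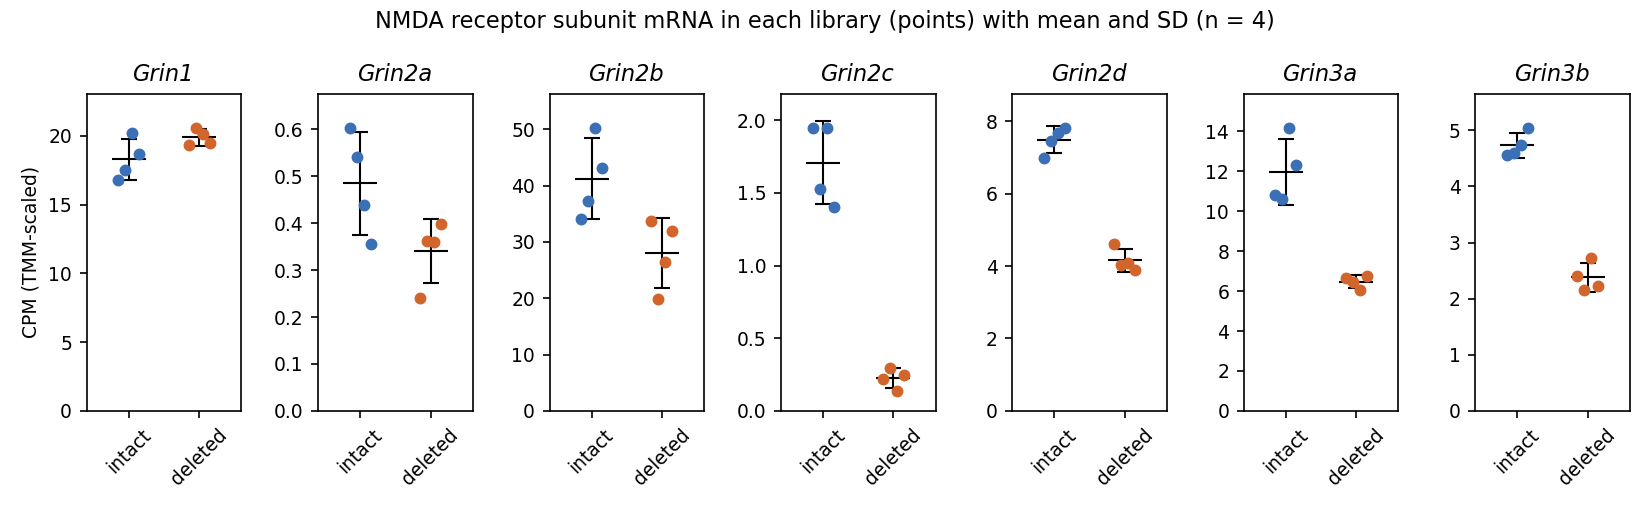
CPM of each subunit gene on TMM-scaled library sizes (vertical axes from 0, with a separate scale for each gene) in the 4 Taf8-intact and 4 Taf8-deleted libraries; points are libraries, horizontal bars the mean and whiskers the SD. The points of the groups are separate for Grin2b, Grin2c, Grin2d, Grin3a and Grin3b, by a narrow margin for Grin2b, and they overlap for Grin1 and Grin2a.

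Grin1 (gene identifier 14810, chr2:25291177-25319187) did not pass the test. Its 4 intact libraries measured 16.8, 17.5, 20.2 and 18.7 CPM and its 4 deleted libraries 19.3, 20.6, 20.1 and 19.5 CPM. The deleted values lay at the upper end of the intact range, 1 of them above it, and the lowest 3 values were all from intact cortex. The means were 18.3 ± 1.52 and 19.9 ± 0.578 CPM. The log2 fold change was 0.12 ± 0.06 (SE), with an edgeR adjusted p of 0.104 and an approximate 95% interval from 0.00 to 0.24. With upper-quartile factors or library totals in place of TMM it was 0.18, and Grin1 then passed as higher, with edgeR adjusted p of 0.0226 and 0.021. It also passed with the stricter filter on low counts (0.15, adjusted p = 0.0479) and without intact replicate 3 (0.18, adjusted p = 0.0158). An antisense transcript, Grin1os, overlaps an exon of Grin1 by up to 165 bases in GENCODE M21. It held only 17 to 32 counts per library, against 721 to 909 for Grin1.

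Grin2b (14812, chr6:135713221-136173615), which encodes the main GluN2 subunit of early forebrain, was lower, with a wide spread between libraries. It had the highest CPM of the family. The intact libraries gave 34.1, 37.3, 50.3 and 43.2 CPM, and the deleted libraries gave 33.7, 19.9, 26.5 and 32.0 CPM. Deleted replicate 1 lay just under the lowest intact library, so the groups barely separated. The means were 41.2 ± 7.12 and 28 ± 6.24 CPM. Grin2b fell by 0.56 ± 0.19 on the log2 scale to 67.9% of the intact level, with an edgeR adjusted p of 0.0364. The call was lost without intact replicate 2, 3 or 4 (adjusted p of 0.0558, 0.106 and 0.081), without deleted replicate 3 (0.0907), with upper-quartile factors (0.0523), with library totals (0.0517) and with no filter on low counts (0.0626).

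Grin2b varied among embryos of a group by more than counting error. Its coefficient of variation was 17.3% in intact and 22.3% in deleted cortex, where counting error alone gives 2.4% and 2.87%. The highest library was 1.47 times the lowest in intact cortex and 1.70 times in deleted cortex. Grin1, with somewhat fewer counts, varied by 8.3% and 2.91%. In intact replicate 3, which held the highest Grin2b and Grin3a of all libraries and the highest Grin1 of the intact ones, the summed general neuron markers were the highest of all libraries (9280 CPM) and the summed radial glia markers the lowest (2130 CPM). The part of this difference in the Grin2b result was not tested.

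Grin2c (14813, chr11:115249169-115267297) had the largest fall of the family. The intact libraries held 84, 65, 80 and 59 counts and the deleted libraries 10, 13, 6 and 10 counts. On the CPM scale these were 1.95, 1.53, 1.95 and 1.40 CPM against 0.219, 0.295, 0.136 and 0.249 CPM. The lowest intact library was well above the highest deleted one. The mean went from 1.71 ± 0.285 to 0.225 ± 0.0671 CPM. Grin2c fell by 2.91 ± 0.24 on the log2 scale, to 13.3% of the intact level, with an edgeR adjusted p of 5.56e-07. Of the 16074 genes tested, 6 (0.0373%) had a log2 fold change as low as that of Grin2c or lower, Grin2c itself and Taf8 among them. Counts of 6 to 13 in the deleted libraries limit the precision of the residual level, whose variation of 29.9% was close to the 32.0% of counting error alone. A small RNA gene, Gm25837, lies on the opposite strand over 91 of its exon bases.

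Grin2d (14814, chr7:45831883-45871194), which encodes an early subunit of slow channels often found in interneurons, fell with little spread. Its intact values were 7.0, 7.47, 7.69 and 7.83 CPM, and its deleted values were 4.62, 4.04, 4.09 and 3.89 CPM. The groups were far apart relative to their spread, with means of 7.50 ± 0.364 and 4.16 ± 0.32 CPM. The fall was 0.85 ± 0.09 on the log2 scale, to 55.6% of the intact level (edgeR adjusted p = 3.32e-06). Of all genes tested, 4.85% had a log2 fold change at or below that of Grin2d.

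Grin2a (14811, chr16:9567901-9996083), the subunit known for its later rise, was close to the limit of detection. It held 26, 23, 18 and 15 counts in intact and 11, 16, 16 and 16 counts in deleted cortex, with means of 0.485 ± 0.11 and 0.341 ± 0.069 CPM. Intact replicate 4 lay within the deleted range, so the groups overlapped. The log2 fold change was -0.51 ± 0.26 and did not pass the test (edgeR adjusted p = 0.0991). The spread of 22.7% and 20.2% was near the counting error of 22.1% and 26.0%.

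Both GluN3 genes fell to about the same share of their intact level. Grin3a (242443, chr4:49661611-49846023) had 10.8, 10.6, 14.2 and 12.3 CPM in the intact embryos, against 6.66, 6.44, 6.05 and 6.76 CPM in the deleted ones. Every deleted library was below every intact one, and the deleted libraries were the more alike. The means were 12 ± 1.66 and 6.48 ± 0.312 CPM, a fall by 0.89 ± 0.10 on the log2 scale to 54.1% (edgeR adjusted p = 5.89e-06). Grin3b (170483, chr10:79970397-79977190) had 4.56, 4.6, 4.74 and 5.05 CPM in the intact embryos, against 2.41, 2.16, 2.73 and 2.22 CPM in the deleted ones. Its groups were also separate. The means were 4.74 ± 0.225 and 2.38 ± 0.26 CPM, a fall by 0.99 ± 0.11 on the log2 scale to 50.3% (edgeR adjusted p = 6.58e-06). In GENCODE M21 an exon of Grin3b overlaps an exon of Tmem259 on the opposite strand by up to 399 bases. In RefSeq, which gave the spans here, Tmem259 starts at 79977120, so only the end of Grin3b, up to 79977190, is shared. Without strand the reads of a shared stretch cannot be assigned. Tmem259 was far more abundant, at 124 ± 2.94 CPM where Taf8 was intact and 117 ± 6.8 CPM where it was deleted, and did not pass the test (log2 fold change -0.09 ± 0.04, edgeR adjusted p = 0.087).

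Levels of different genes were compared per kilobase of the length deposited with the counts (CPM per kb). In intact cortex the order was Grin2b at 5.49 ± 0.948, Grin1 at 4.32 ± 0.359, Grin3a at 3.58 ± 0.497, Grin2d at 1.71 ± 0.0829, Grin3b at 1.45 ± 0.0687, Grin2c at 0.349 ± 0.0582 and Grin2a at 0.107 ± 0.0244 CPM per kb. Grin2b and Grin1 were not separate across the 4 libraries, nor were Grin1 and Grin3a, while every later neighbour was. In Taf8-deleted cortex Grin1 came first, at 4.70 ± 0.137 CPM per kb, and did not overlap with Grin2b at 3.73 ± 0.83. Grin3a followed at 1.94 ± 0.0931, Grin2d at 0.949 ± 0.0729 and Grin3b at 0.727 ± 0.0793 CPM per kb. Grin2a, at 0.0756 ± 0.0153, and Grin2c, at 0.0459 ± 0.0137, came last and overlapped. Thus the order of the means differed at both ends, between Grin2b and Grin1 and between Grin2c and Grin2a. Against the length-scaled levels of all tested genes, Grin1 stood above 36.9% of them in intact and 38.5% in deleted cortex, while Grin2c went from above 10.6% to above 0.205%.

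Grin1 made up a larger share of the family's mRNA in each deleted library than in any intact one. Summed over the 7 genes, the level was 17 ± 1.88 CPM per kb in intact and 12.2 ± 0.779 in deleted cortex. Grin1 made up 26.0%, 26.1%, 24.6% and 25.2% of this sum in intact cortex, against 35.4%, 43.7%, 39.7% and 36.6% in deleted cortex. The groups were clearly separate, with means of 25.5 ± 0.702% and 38.8 ± 3.70%, a difference of 13.4 percentage points. The share of Grin2b was 32.1 ± 2.00% in intact and 30.4 ± 5.02% in deleted cortex, and the groups overlapped. The shares of Grin2d (10.1 ± 0.762% to 7.81 ± 0.547%), Grin3a (21.0 ± 0.749% to 15.9 ± 0.941%), Grin3b (8.57 ± 0.747% to 5.99 ± 0.698%) and Grin2c (2.07 ± 0.407% to 0.380 ± 0.128%) were lower in every deleted library than in any intact one. Shares were not tested, and they cannot move independently because they add up to the whole.

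**Figure D2:**
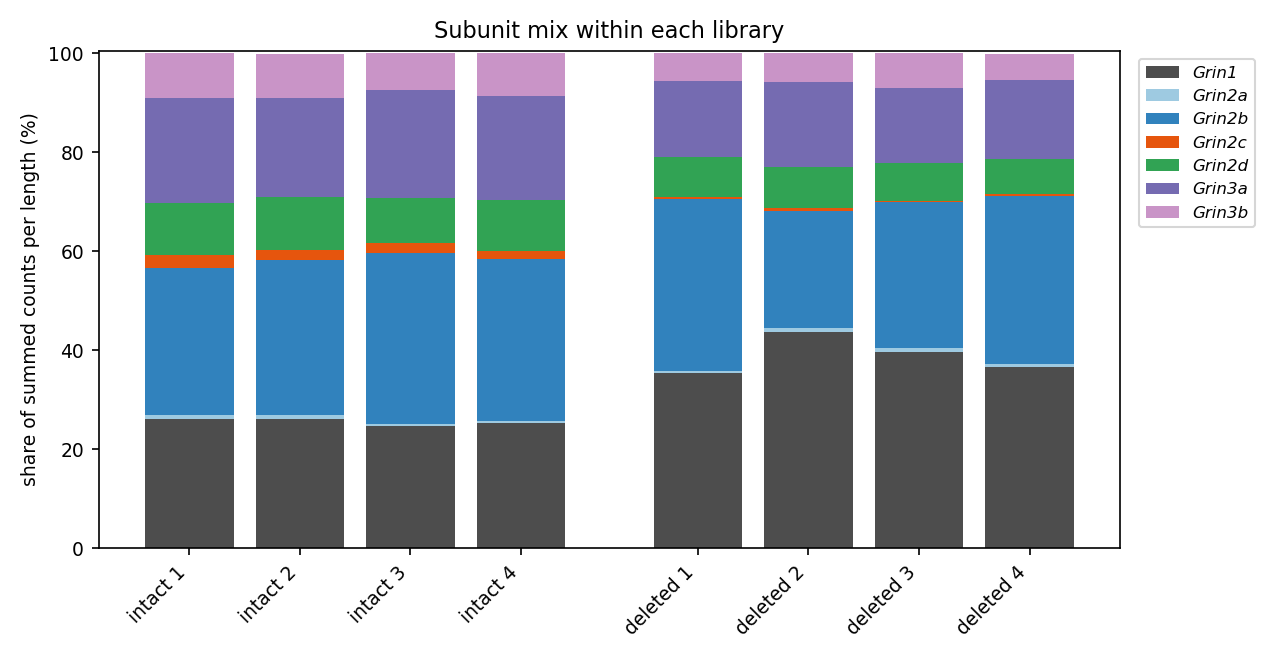
Share of each subunit gene in the summed counts per length of the 7 genes (vertical axis, percent) in each library, with stacked colours for the genes. The Grin1 block at the bottom spans 24.6% to 26.1% of the intact bars and 35.4% to 43.7% of the deleted bars, and the Grin2c band nearly vanishes in the deleted libraries.

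Because a channel needs GluN1 with other subunits, the ratio of partner mRNA to Grin1 mRNA was compared. The 4 Grin2 genes together stood at 1.68, 1.72, 1.87 and 1.79 times the Grin1 level per length in intact cortex and at 1.23, 0.76, 0.962 and 1.14 times in deleted cortex. All deleted libraries were below all intact ones, with means of 1.77 ± 0.0824 and 1.02 ± 0.209. With the Grin3 genes added, the ratio was 2.93 ± 0.109 in intact and 1.59 ± 0.239 in deleted cortex. Within the Grin2 genes, Grin2b held 71.4 ± 3.00% in intact and 77.2 ± 4.13% in deleted cortex, Grin2d 22.5 ± 2.05% and 20.2 ± 3.44%, and Grin2c 4.61 ± 0.987% and 0.998 ± 0.443%. The groups overlapped for Grin2b and Grin2d and were separate for Grin2c. Thus Grin2b remained the most abundant Grin2 mRNA per length in both groups.

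Ratios within a library do not depend on how libraries are scaled, and 10 pairs of the 5 genes with a mean of at least 50 counts were tested on log2 count ratios. The ratio of Grin2b to Grin1 was lower by 0.70 in deleted cortex, a log2 difference of -0.70. The difference for Grin2d to Grin1 was -0.97, for Grin3a to Grin1 -1.0 and for Grin3b to Grin1 -1.12, and in all 4 ratios the groups were separate. Each had an exact two-sided permutation p of 0.0286, the smallest that 4 against 4 libraries allow, and 0.0714 after adjustment over the 10 pairs, so that 0 of the 10 pairs passed. An edgeR fit over all genes with Grin1 counts in place of the library size, added after the data had been seen, put Grin2b at -0.67 ± 0.18 (adjusted p = 0.0163), Grin2d at -0.97 ± 0.12 (3.28e-08), Grin3a at -1.0 ± 0.10 (9.38e-10), Grin3b at -1.12 ± 0.14 (7.06e-08) and Grin2c at -3.04 ± 0.26 (3.39e-11) relative to Grin1. The counting error of Grin1 is shared by all of these. The fit takes the Grin1 counts as an exact library size, so their error is common to every gene. Its adjusted p may therefore be too small, and it does not replace the permutation test, which 0 of the 10 pairs passed.

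The other 6 of the 10 pairs, among Grin2b, Grin2d, Grin3a and Grin3b, differed by less and did not pass. Grin3a to Grin2d differed by -0.03 on the log2 scale (exact permutation p = 0.771), Grin3b to Grin2d by -0.15 (exact p = 0.171) and Grin3b to Grin3a by -0.12 (exact p = 0.457). The ratios to Grin2b, which carry its wide spread, differed by -0.28 for Grin2d, -0.31 for Grin3a and -0.42 for Grin3b, with exact permutation p of 0.257, 0.143 and 0.114. A p that misses the threshold does not show that these genes moved alike. Grin2c, whose mean is under 50 counts, went apart from them. With pairs of a mean of at least 10 counts, the log2 ratio differed by -2.33 for Grin2c to Grin2b and by 2.05 for Grin2d to Grin2c, with separate groups, an exact permutation p of 0.0286 and an adjusted p of 0.06.

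Neuron markers were lower in the same libraries, in which 32.9% of all genes tested were lower and 30.6% higher. The 14 general neuron markers summed to 8350 to 9280 CPM per intact library and 6730 to 7300 CPM per deleted library, with 12 of 14 lower, 0 higher and a median log2 fold change of -0.39. Dcx, a microtubule protein of young neurons, fell by 0.70 ± 0.06, while the neuronal tubulin Tubb3 did not pass (-0.06, edgeR adjusted p = 0.146). The 10 cortical excitatory neuron markers summed to 2340 to 2560 CPM and 1230 to 1370 CPM, all 10 were lower and their median was -0.82. They include the deep-layer factor Bcl11b (-0.76 ± 0.04) and the projection neuron factor Neurod6 (-1.33 ± 0.06).

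Replacing the library size by these markers adds nearly the same amount to the log2 fold change of every gene, so it shows each gene relative to markers that fell and leaves the distances between the subunit genes as they were. With the summed general neuron markers in place of the library size, Grin2c (-2.58 ± 0.25), Grin3b (-0.66 ± 0.13), Grin3a (-0.55 ± 0.09) and Grin2d (-0.52 ± 0.10) remained lower (edgeR adjusted p of 1.65e-07, 0.000216, 3.62e-05 and 0.000331). Grin2b, at -0.22 ± 0.16, did not pass (adjusted p = 0.229). Grin1 stood at 0.46 ± 0.07 (adjusted p = 2.16e-05) on this scale. Relative to the excitatory neuron markers, Grin2d, Grin3a and Grin3b were at 0.07 ± 0.11, 0.03 ± 0.09 and -0.08 ± 0.13 and did not pass (adjusted p of 0.539, 0.747 and 0.582). On that scale Grin2b turned to 0.35 ± 0.16 and Grin2a to 0.40, neither passing (adjusted p of 0.0622 and 0.175). Grin2c stayed lower, by a log2 fold change of -2.0 ± 0.25 (adjusted p = 3.57e-07). Grin1 stood at 1.04 ± 0.08 (adjusted p = 1.66e-10) relative to these markers, against 0.12 on the main scale, where it did not pass. These scalings, too, were chosen with the data seen, and they take the marker sums as exact library sizes.

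**Figure D3:**
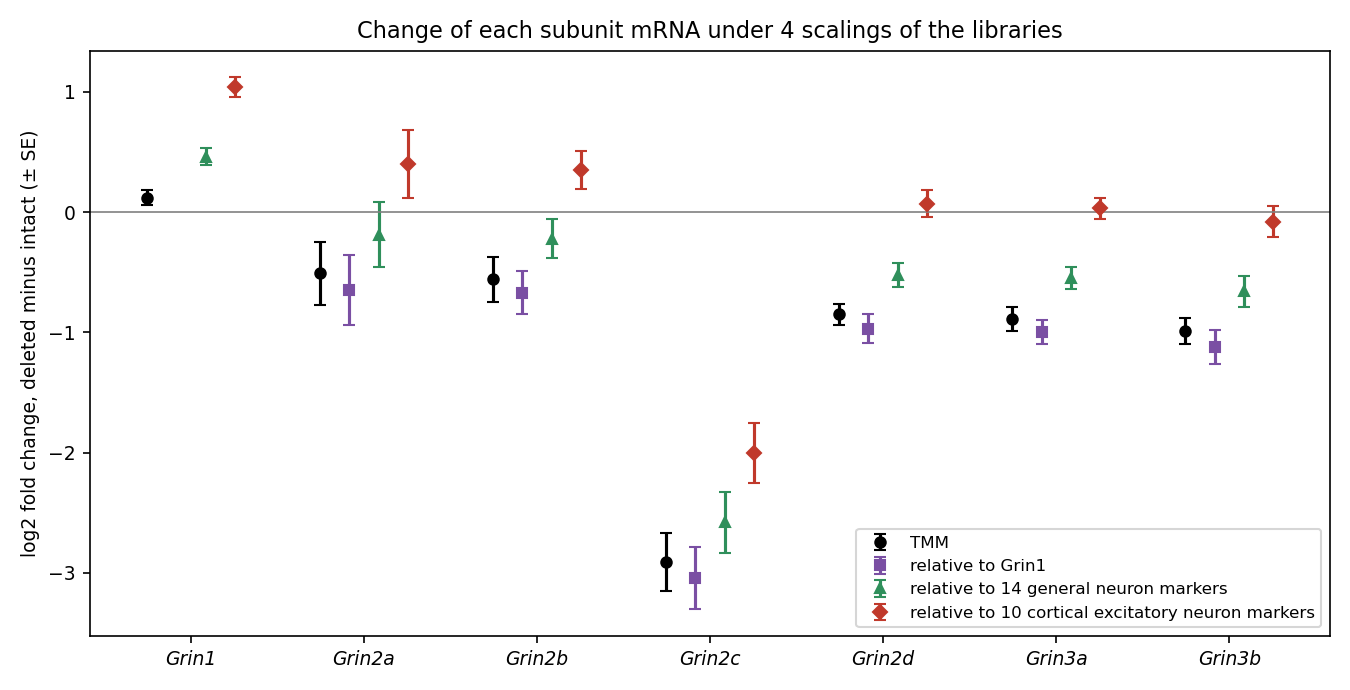
Log2 fold change (deleted minus intact, vertical axis, with SE) of each subunit gene under the main TMM scaling and relative to Grin1, to 14 general neuron markers and to 10 cortical excitatory neuron markers. Grin2c lies at or below -2.0 on all 4 scales, Grin1 lies above 0, and Grin2d, Grin3a and Grin3b lie between -0.08 and 0.07 on the excitatory neuron scale.

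Markers of other cells also differed in part, where 32.9% of all genes tested were lower and 30.6% higher. The 10 radial glia markers summed to 2130 to 2430 CPM per intact library and 2990 to 3210 CPM per deleted library, with 6 higher, 3 lower and a median of 0.36. Nes and Vim, intermediate filament genes of neural progenitors, rose by 0.85 and 0.59, from 682 to 1230 and from 602 to 910 CPM. They were the most abundant of the list and weigh most in its sum. The lower ones were Fabp7 (-0.51), Slc1a3 (-0.33) and Emx1 (-0.30). The 11 interneuron markers summed to 953 to 1080 CPM and 722 to 791 CPM, with 8 lower, 2 higher and a median of -0.30. The interneuron factor Dlx1 was among the lower ones (-0.15 ± 0.05), and the higher ones were Dlx5 (0.39) and Dlx6 (0.77). The 6 endothelial markers, all higher, summed to 134 to 142 CPM and 157 to 195 CPM. The 6 oligodendrocyte precursor markers summed to 71.2 to 75.4 CPM and 58.3 to 74.1 CPM, with 4 lower, 1 higher and a median of -0.51. The 5 microglia markers summed to 34.0 to 37.5 CPM and 33.1 to 40.3 CPM, with 1 lower, 1 higher and a median of 0.24. The 6 meningeal markers were uneven, at 26.1, 23.5, 15.9 and 36.9 CPM in intact and 60.9, 116, 146 and 18.7 CPM in deleted libraries, with 4 higher (1 to 5 when a library was left out), 0 lower and a median of 1.67. No marker was at 0 in all libraries. Deleted replicates 2 and 3, with the highest meningeal sums, also had the lowest Grin2b. Without them its log2 fold change was -0.33 with an edgeR adjusted p of 0.112, in a fit added after the data had been seen. Leaving out the lowest deleted libraries makes the fall smaller in any case. Whether the meningeal share has a part in that result was not tested.

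Scaffold and transport proteins that hold the receptor at the synapse were mostly lower. Of 22 genes, 15 were lower, 1 was higher and 6 did not pass, with a median log2 fold change of -0.18. Among all genes tested, 32.9% were lower and 30.6% higher. The membrane-associated scaffolds Dlg3 (-0.56 ± 0.04, 121 to 81.9 CPM), Dlg4, which encodes PSD-95 (-0.51 ± 0.04, 306 to 215 CPM), and Dlg2 (-0.79 ± 0.07, 88.6 to 51.4 CPM) fell. Neto1, an auxiliary protein of glutamate receptors, fell furthest of these by 1.27 ± 0.10, from 17.4 to 7.22 CPM. The highest edgeR adjusted p of these 4 genes was 3.03e-06, that of Dlg2. Homer3, a postsynaptic scaffold whose exons overlap those of Ddx49, rose by 0.44 ± 0.04 (50.6 to 68.6 CPM, edgeR adjusted p = 1.64e-06). Shank3 (0.08), the kinesin Kif17 that carries GluN2B (0.11) and Dlgap4 (0.02) did not pass. With library totals or upper-quartile factors the counts were 12 lower and 2 higher.

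Among 19 signalling enzymes and calcium sensors coupled to the receptor, 11 were lower, 4 were higher and 4 did not pass, with a median of -0.15. Shares over all genes tested were 32.9% lower and 30.6% higher. Nos1, the neuronal nitric oxide synthase that is tethered to the receptor by PSD-95, fell by 1.98 ± 0.10, from 43.7 ± 6.01 to 11.1 ± 1.04 CPM (edgeR adjusted p = 5.60e-08). Its exons overlap those of Gm26995. Prkcb, a protein kinase C, fell by 1.14 ± 0.04 (83.5 to 37.8 CPM) and the receptor kinase Src by 0.45 ± 0.03. Of the genes for the calcium sensor calmodulin, Calm2 rose by 0.12 ± 0.04 and Calm3 fell by 0.31 ± 0.03. Camk2a, the kinase activated by calcium entry through the receptor, rose by 0.13 ± 0.05 (edgeR adjusted p = 0.0365), and the kinase subunit Csnk2a1 by 0.16 ± 0.04. Only 2 of the 19 were higher without intact replicate 1, and likewise without deleted replicates 2 and 3.

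Genes that handle the co-agonists went in both directions. Of 9 genes listed, 7 were tested, of which 3 were higher and 1 was lower, with a median of 0.14. So few genes do not set these counts apart from the 30.6% higher and 32.9% lower of all genes tested. Srr, which makes D-serine and overlaps Tsr1 and Smg6, rose by 0.30 ± 0.04 (edgeR adjusted p = 1.72e-05). Shmt2, the mitochondrial enzyme that interconverts serine and glycine, rose by 0.24 ± 0.05, and Slc1a5, a neutral amino acid transporter, by 1.29 ± 0.20 (13.8 to 33.7 CPM, adjusted p = 0.00067). Shmt1, the cytosolic counterpart, which overlaps Smcr8, fell by 0.38 ± 0.08. The glycine transporter Slc6a9 (-0.15, adjusted p = 0.289), Slc7a10 (-0.29, adjusted p = 0.115) and Slc1a4 (0.14, adjusted p = 0.0568), which both carry serine, did not pass.

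Of 7 transcription factors known to act on Grin genes, 4 were lower, 0 were higher and 3 did not pass, with a median of -0.20. Over all genes tested, 32.9% were lower and 30.6% higher. Tbr1, a factor of early projection neurons known to act on Grin2b, fell by 0.40 ± 0.04 (edgeR adjusted p = 3.04e-06). Mef2c fell by 0.60 ± 0.10, Creb1 by 0.22 ± 0.04 and Sp1, a GC box factor, by 0.20 ± 0.04 (adjusted p of 0.000554, 0.000307 and 0.000732). The repressor Rest (-0.06, adjusted p = 0.244), Sp4 (0.00, adjusted p = 0.962) and Nrf1 (-0.02, adjusted p = 0.681) did not pass.

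**Figure D4:**
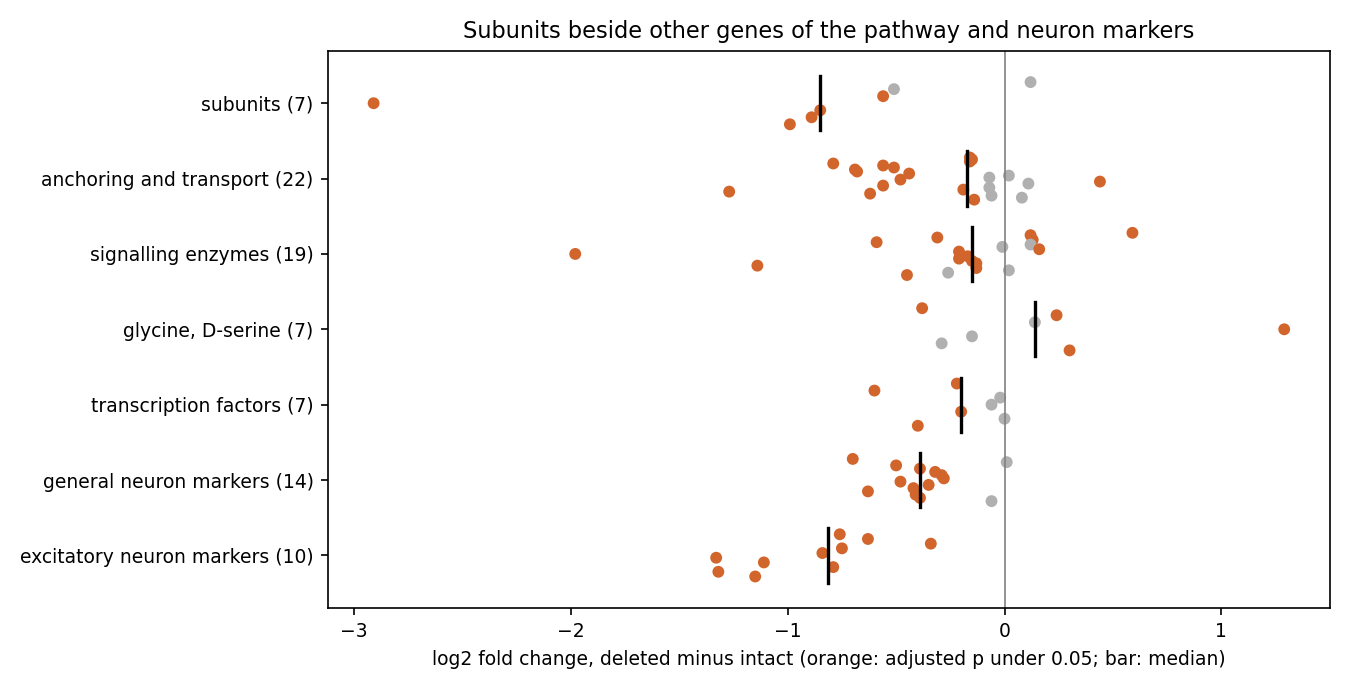
Log2 fold change (horizontal axis, deleted minus intact) of every tested gene in the subunit family, 4 pathway lists and 2 neuron marker lists; orange points have an edgeR adjusted p under 0.05, grey points do not, and black bars mark the median of each list. The median of the subunit genes, -0.85, is near that of the excitatory neuron markers, -0.82, while the other pathway lists have medians from -0.20 to 0.14.

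The genes whose pattern over the 8 libraries was most like that of a subunit gene were found by Pearson correlation of log2 CPM, which reads the group difference as well as differences within groups. Closest to Grin2b were Pcdhga4, a clustered protocadherin that shares exons with its neighbours (r = 0.978), Syt14, a synaptotagmin (r = 0.976), and Zfp804a, a zinc finger gene (r = 0.974). As for Grin2b, deleted replicate 2 was their lowest library and deleted replicate 3 the next, but they had smaller log2 fold changes, from -0.35 ± 0.08 to -0.22 ± 0.07. Closest to Grin2c were Hmox2, a heme oxygenase (r = 0.995), Tprkb (r = 0.994) and Apbb2, an adaptor of the amyloid precursor protein (r = 0.993). Their log2 fold changes of -0.38 to -0.42 were far smaller than that of Grin2c, since a correlation takes no account of size. The exons of Hmox2 overlap those of Cdip1, and those of Tprkb overlap those of Nat8f1.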

How the data were processed

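The authors deposited raw counts as whole numbers for each gene, together with a gene length column. Subread 1.5.0, featureCounts, bcl2fastq 1.8.4 and mm10 are named in the submitters' processing notes, without their roles. The handling of overlapping genes and multimapping reads is not given in the sources used here. Exon overlaps between genes are those of GENCODE M21, and their stated bases are the longest overlap of any single pair of exons. Per the labels, polyadenylated RNA of separate embryos was sequenced unstranded, and a symbol was matched for 25275 of 27179 identifiers in RefSeq (GRCm38.p6). In R 4.3.3, edgeR 4.0.16 was run on all 8 libraries with filterByExpr, TMM factors, its robust quasi-likelihood test and no covariates, with p-values adjusted over 16074 genes at a threshold of 0.05. Each SE is the absolute log2 fold change divided by the square root of F. CPM uses TMM-scaled library sizes. Pairs of subunits were compared by exact permutation of log2 ratios of counts plus 0.5. Alternatives were other factors and filters, DESeq2 1.42.0, limma 3.58.1 voom, a replicate block and leaving out each library. Libraries of a group differed by more than sampling noise (chi-square per gene 4.22 to 14.6). Replicate numbers gave no sign of pairing the embryos.

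The members, lists and tests were chosen with earlier results of these data known. Named genes are Taf8, the 7 subunits, all tested genes of the transcription factor and co-agonist lists, the 4 genes of smallest p in each direction in the other 2 pathway lists, the 2 most abundant of each marker list and the 3 genes most alike to Grin2b and Grin2c. Radial glia and interneuron markers called against the direction of their list's sum are named as well. Values of some genes that this rule takes, and some sequences, are not reported here. The coding stretch was searched with a motif of 9 codons in the longest open reading frame of GENCODE M21 transcripts, and was shortened at its end after it had been read, since Grin3b differed there. Each SE, and the interval built from it, comes from the edgeR fit and so includes the spread between embryos as well as counting error. PCR copies of a molecule cannot be recognised, and the stated counting errors take no account of them.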

Additional observations from a re-analysis of the deposited data

Results flagged for a closer look

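Of 36 sets of 4 values examined, 1 had a library far from the others. The log2 ratio of Grin3a to Grin2b in Taf8-intact cortex was -1.66 in replicate 1 and -1.81, -1.82 and -1.81 in replicates 2 to 4. Chance alone would single out about 1 in 20 such groups.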

How the results depend on the processing

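Grin2c, Grin2d, Grin3a and Grin3b remained lower under all 16 alternatives other than those added later, with log2 fold changes over the leave-one-out fits of -3.06 to -2.72, -0.89 to -0.81, -0.94 to -0.79 and -1.06 to -0.94. The number of subunit genes called higher was 1 (Grin1) with upper-quartile factors, with library totals and with CPM above 1 in 4 libraries, and 0 to 1 when a library was left out. The number called lower was 4 to 5. Grin2a did not pass in any fit and was not tested under the filter at CPM above 1. Scaled to the excitatory neuron markers, Grin2a (0.40), Grin2b (0.35), Grin2d (0.07) and Grin3a (0.03) turned in sign, by the construction of that scale. The median of all genes moved at most to 0.06. Library totals gave 5894 genes higher and 4416 lower. With the replicate number as a block, 0 subunit genes were higher and 5 lower, and 4605 genes were higher and 5060 lower. Deviations of same-numbered libraries from their group means, over all genes tested, correlated at -0.229, 0.00519, -0.000469 and -0.455. These values give no sign of pairing by number, and a shared litter, day or batch was not tested. For the ratios, 0 pairs passed when any 1 library was left out (lowest adjusted p 0.0571 by exact permutation). Since so few libraries set a floor on the exact p, a pass needed most of the pairs at that floor at once. That outcome therefore says little about stability. Over the same omissions the log2 difference of Grin3a to Grin2d, near 0 throughout, ranged from -0.08 to 0.04. It turned in sign without intact replicate 3 (0.04) and without deleted replicate 1 (0.01). With the block, the sign-flip test of 4 pairs cannot reach 0.05. In shares of raw counts, without length, Grin1 went from 21.4% to 32.7% and Grin2b from 47.8% to 45.1%.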
